A study of Mus musculus with 12 samples.

Results

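The genotype by hCG interaction is the difference between 2 responses: the change that human chorionic gonadotropin (hCG) brought about in granulosa cells of mice without Inha, minus the change it brought about in wild-type granulosa cells. All 12 arrays of the series enter it as a design of 2 genotypes and 2 treatments, and it was computed for 12500 of the 18193 genes that a probe set named singly. Granulosa cells are the somatic cells around the oocyte in an ovarian follicle, and Inha encodes the alpha subunit of inhibin. Wild-type mice and Inha knockout mice, both of the strain label C57BL/6J;129S5/SvEvBrd and 21 days old, were all injected with pregnant mare serum gonadotropin (PMSG, 5 IU). Cells were collected by puncturing antral follicles after 44 to 46 h of PMSG, or 6 h after a further 5 IU of hCG. Each of the 4 groups held 3 samples, described as independent, with 1 Affymetrix array each. The sources used here did not say whether a sample pooled several mice, nor in which cells other than granulosa cells the knockout mice lacked Inha.

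PMSG, a substitute for follicle-stimulating hormone (FSH), makes antral follicles grow until they can ovulate. hCG binds the receptor of luteinizing hormone (LH) and replaces the LH surge that triggers ovulation. The surge raises cyclic AMP in granulosa cells, induces EGF-like growth factors, prostaglandin synthesis and a hyaluronan matrix, and turns the cells toward progesterone synthesis. Inhibin opposes activin, a ligand of the TGF-beta family that acts on granulosa cells, and it lowers the release of FSH by the pituitary.

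The deposited values are log2 expression values centred on each probe set's median over the 12 arrays. A value therefore gives a distance from that median and no level, and detection above background was not analysed here. A negative interaction means that the value rose less, or fell more, in the knockout than in wild type. All tests are limma fits across the 12500 genes with Benjamini-Hochberg adjusted p values, and a gene was called when its adjusted p was under 0.05 and its interaction at least 1 on the log2 scale, that is, a 2-fold difference between the responses. The p values measure the spread between these samples. Across genes, replicate arrays taken after PMSG correlated with r from 0.524 to 0.756 for wild type and from 0.210 to 0.374 for the knockout. Those taken after hCG had r from 0.693 to 0.830 and from 0.407 to 0.731.

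The labels were checked on Inha itself. Wild-type values were 5.62, 5.62 and 5.87 before and 5.52, 5.40 and 5.42 after hCG. In the knockout they were -7.38, -5.40 and -7.25 after PMSG and -7.35, -7.35 and -7.40 after hCG. The genotypes did not overlap under either treatment, and the hCG responses of Inha were -0.26 in wild type and -0.69 in the knockout (interaction -0.43, adjusted p = 0.783). Where its probe set lies with respect to the deletion is not stated in the labels.

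Responses to hCG differed between the genotypes for 261 of the 12500 genes, or 2.09% of those tested. The interaction was lower in 188 genes (1.50%) and higher in 73 (0.584%), against a median of 0.08 over all genes. This balance rested on single arrays: the higher genes ranged from 25 to 286 over the 12 fits that left out 1 array, and without replicate 2 of wild type after hCG 286 were higher and 263 lower. At an unadjusted p under 0.05 there were 1859 genes (14.9%), 1114 of them positive (8.91%) and 745 negative (5.96%). In wild type 1234 genes rose after hCG (9.87%) and 1530 fell (12.2%). In the knockout 306 rose (2.45%) and 28 fell (0.224%), together 2.67% of all genes. The genes that rose in both genotypes numbered 242, which is 19.6% of the wild-type rises and 79.1% of the knockout rises. Those that fell in both numbered 10, or 0.654% of the wild-type falls and 35.7% of the knockout falls.

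The 261 genes were sorted by how their responses differed. A response counted as lost when wild type moved by at least 1 on the log2 scale with an adjusted p under 0.05 and the knockout by less than 0.5. It counted as blunted when the knockout moved the same way by at least 0.5 but less far. The mirror cases were called gained and enhanced, and a response was called reversed when the genotypes moved in opposite directions by at least 0.5 each. By these bounds the response was lost in 155 genes, blunted in 67, gained in 10, enhanced in 8 and reversed in 15, and 6 met no definition. Lost or blunted responses thus made up 222 genes, 85.1% of the 261. A wild-type rise had gone missing or shrunk in 176 of these and a wild-type fall in 46. Because these sorted values come from the arrays that gave the interaction, responses and group differences of the sorted genes are descriptions and carry no further test. A bound of 0.5 leaves doubtful cases: 21 lost genes had a knockout response of at least 0.4, 11 blunted genes one under 0.6, and for 141 of the 155 lost genes the 95% interval of the knockout response reached 0.5 in size.

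**Figure D1:**
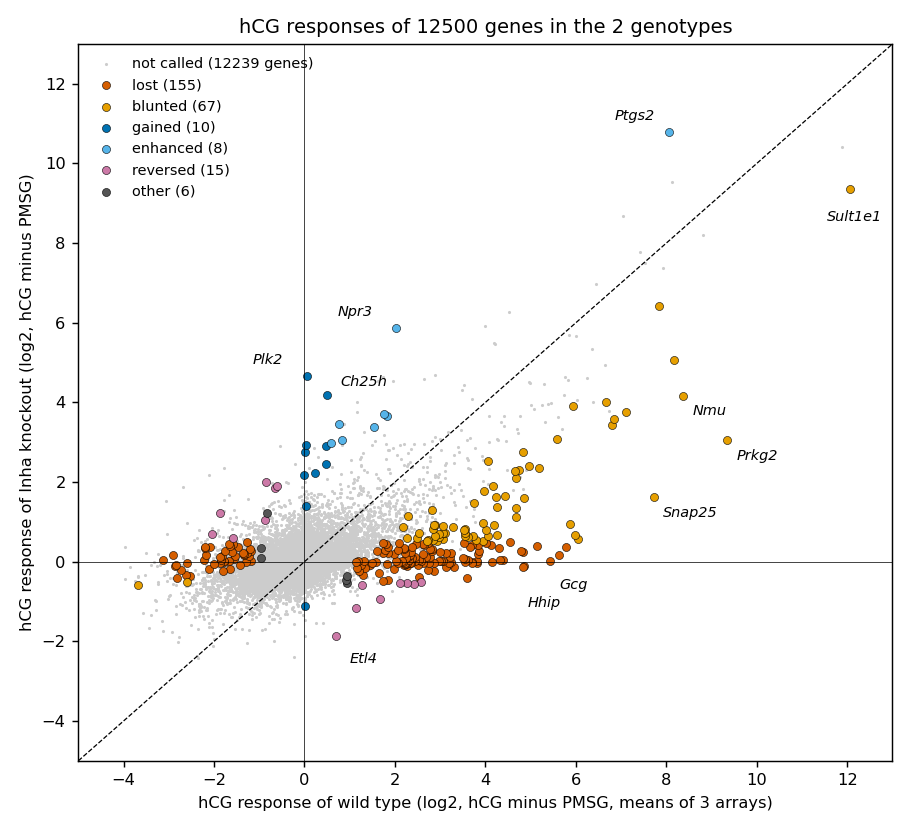
Each point is 1 of 12500 genes, with its hCG response in wild type (x axis, log2) against that in the Inha knockout (y axis, log2), each a difference of 2 means of 3 arrays; colours mark the response classes and the dashed line equal responses. Most coloured points lie below the line at positive x (111 lost and 65 blunted rises), and Ptgs2, Npr3 and Plk2 lie above it. The lost rises lie within 0.5 of 0 on the y axis, and the blunted ones reach up to 9.35 there.

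The most negative interaction belonged to Prkg2, which encodes cGMP-dependent protein kinase 2. Its values were -1.53, -1.64 and -1.49 in wild type after PMSG and 7.93, 7.49 and 7.96 after hCG, against -1.53, -1.78 and -1.18 and then 1.57, 1.18 and 1.89 in the knockout. The genotypes overlapped before hCG and lay far apart after it. Prkg2 rose by 9.34 on the log2 scale in wild type and by 3.04 in the knockout, an interaction of -6.30 ± 0.332 (SE, adjusted p = 7.02e-06), and its 2 other probe sets gave -7.24 and -5.09. Snap25, a SNARE protein of vesicle fusion, stood at -0.47, -0.48 and -0.44 before and 7.29, 6.97 and 7.51 after hCG in wild type. In the knockout it went from -0.42, -0.51 and -0.27 to 0.27, 1.75 and 1.64, so that all 3 knockout arrays after hCG lay below all 3 of wild type. Its interaction was -6.10 ± 0.47 (adjusted p = 0.000115), while its other probe set gave -0.83. Sphk1, the kinase that makes sphingosine 1-phosphate, reached 6.26, 5.30 and 6.43 in wild type after hCG, while the knockout had -0.03, 1.79 and -0.13 (interaction -5.48, adjusted p = 0.00118). A single knockout array, replicate 2, carried the remainder of that response, and the other probe set of Sphk1 gave -1.06.

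Several genes of secreted peptides and receptors rose after hCG in wild type and changed by less than 0.5 in the knockout. Gcg, the gene of proglucagon, stood at 5.14, 4.78 and 6.27 in wild type after hCG, and between -0.07 and 0.05 on all 9 other arrays. Its interaction was -5.43 ± 0.431 (adjusted p = 0.000115). Npy, which encodes neuropeptide Y, went from -0.60, 0.01 and -0.26 to 4.12, 4.69 and 5.78 in wild type. The knockout arrays were -0.33, -0.28 and -0.01 before and -0.14, 0.14 and 0.59 after hCG, groups that overlap, and the interaction was -4.75 ± 0.517 (adjusted p = 0.000764). Kl encodes klotho, a co-receptor for FGF23. It reached 4.82, 3.96 and 5.37 in wild type after hCG, while the knockout had 0.03, 0.60 and -0.02, from values between -0.15 and 0.01 before hCG in both genotypes (interaction -4.53 ± 0.436, adjusted p = 0.000331). The other probe set of Kl gave -0.03. Asgr1, a subunit of the asialoglycoprotein receptor, behaved like Gcg, with 5.47, 5.52 and 6.26 in wild type after hCG and at most 0.86 elsewhere (interaction -5.41, adjusted p = 8.53e-05). Tmem71 and Thsd7a, both membrane proteins, had interactions of -5.46 and -4.35 with knockout responses of 0.16 and 0.03. The other probe set of Thsd7a gave -0.44. Of the 111 genes with a lost rise, 30 had all 9 arrays other than wild type after hCG within a span of 0.5. Genes were kept by their spread over all arrays, and a lost rise is defined by a small knockout change, so the choice favours this pattern. Centring on the median puts such flat arrays near 0, and they may lie at background. The count is therefore a description and no test of a complete loss.

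Pitpnc1 carries phosphatidylinositol between membranes, and Sema4f is a membrane-bound semaphorin. In both a rise near 6 in wild type was left below 1 in the knockout: Pitpnc1 rose by 5.99 in wild type and had a change of 0.67 in the knockout (interaction -5.32, adjusted p = 0.000328), with values of -0.01, 1.56 and 0.16 on the knockout arrays after hCG. Sema4f rose by 5.86 and had 0.93 in the knockout (interaction -4.93, adjusted p = 0.00155), with 0.41, 0.04 and 2.07. In each gene 1 knockout array stood above the other two. The 8 other probe sets of Pitpnc1 ranged from -5.06 to 0.01. Of these, 7 were negative and at least 1 in size, and 6 were called in a fit over all single-gene probe sets. The other probe set of Sema4f gave -2.25.

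Of 67 blunted genes, 29 still had a called response in the knockout and 38 did not. The steepest rise among all of them was that of Sult1e1, which encodes estrogen sulfotransferase, an enzyme that inactivates estrogens. It went from -4.69, -4.69 and -4.64 to 7.34, 7.34 and 7.48 in wild type, and from -4.63, -4.71 and -4.24 to 4.24, 4.79 and 5.46 in the knockout. The rise of 9.35 in the knockout was 2.70 ± 0.381 log2 units short of the 12.06 in wild type (adjusted p = 0.00368), with no overlap after hCG. Sult1e1 thus responded in every array of both genotypes, and differed in extent.

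**Figure D2:**
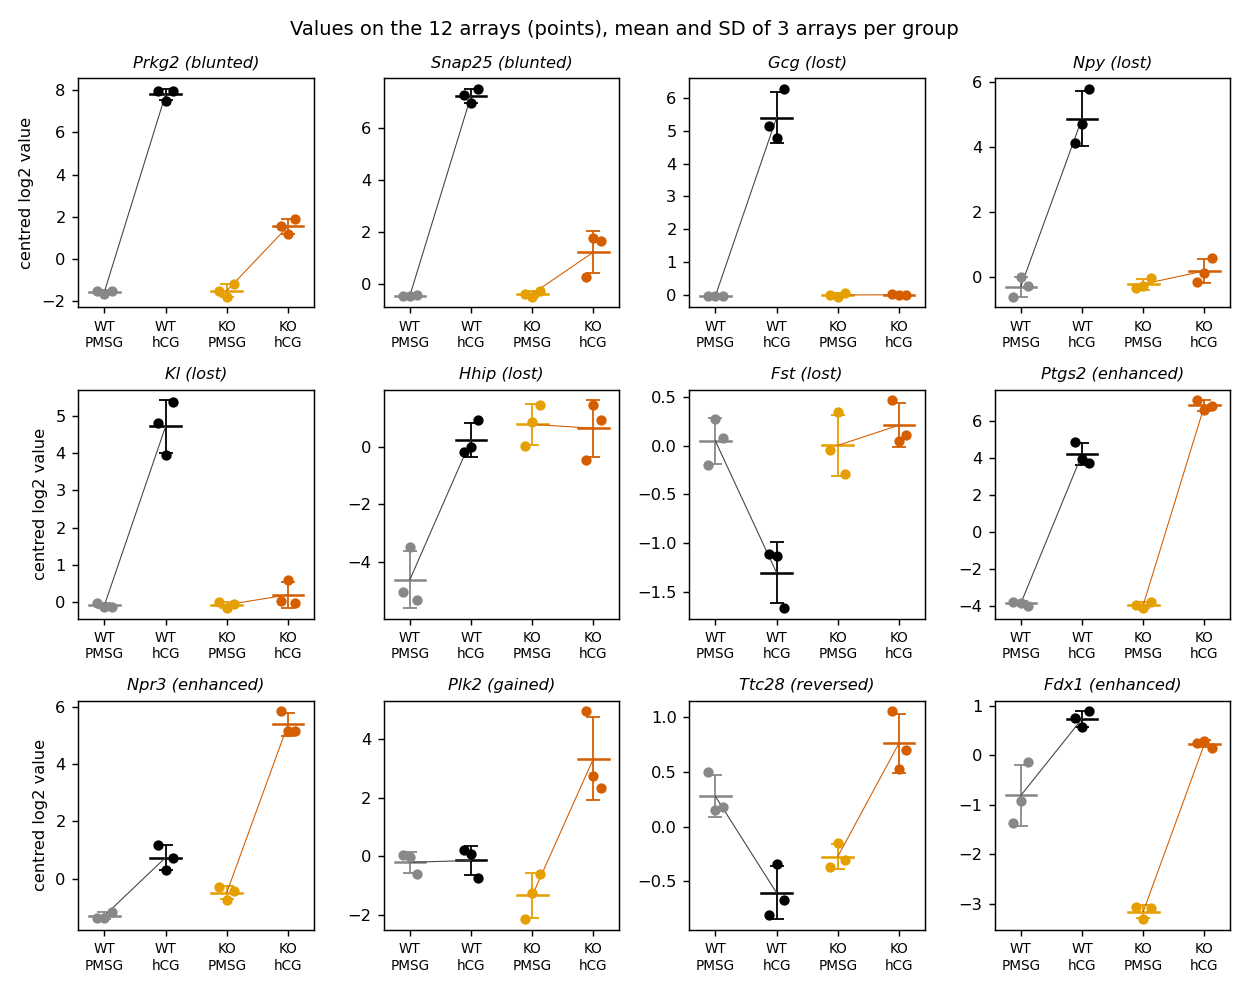
Centred log2 values (y axis) of 12 genes on the 12 arrays, as points with the mean and SD of 3 arrays for wild type (WT) and Inha knockout (KO) after PMSG and after hCG; thin lines join the 2 means of a genotype. Gcg stays between -0.07 and 0.05 outside wild type after hCG, Hhip starts high in the knockout and changes there by -0.13, and Ptgs2 climbs in both genotypes and further in the knockout.

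A different response can come with the same starting level or with a different starting level, and these cases were separated by the genotype difference before and after hCG. A start was called like when the genotypes differed by less than 0.5 after PMSG and by at least 1, with an adjusted p under 0.05, after hCG. This held for 154 of the 261 genes, and for 137 of the 222 with a lost or blunted response. In 17 genes the genotypes differed at the start and by less than 0.5 at the end, which is a like end. In 37 the difference had the same sign at both times and grew (diverging), in 9 it had the same sign and shrank (converging), in 40 it changed sign (crossing), and 4 met none of these definitions. A difference after PMSG was called in 50 of the 261 genes, and over all genes tested in 6.19% (lower in the knockout in 3.21%). After hCG a difference was called in 232, and over all genes in 21.4% (lower in 8.83%). Over all genes tested, the arrays of the genotypes did not overlap after PMSG in 25.6% and after hCG in 40.2%, and those before and after hCG did not overlap in 43.2% in wild type and in 15.6% in the knockout. Among the genes with a like start, 12 had a starting difference of at least 0.4. The median SE of the difference after PMSG was 0.279 over all genes, so the 95% interval of a like start often reaches 0.5. Values at background in both genotypes would also give a like start, and detection was not analysed. A like start therefore does not show an equal level.

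**Figure D3:**
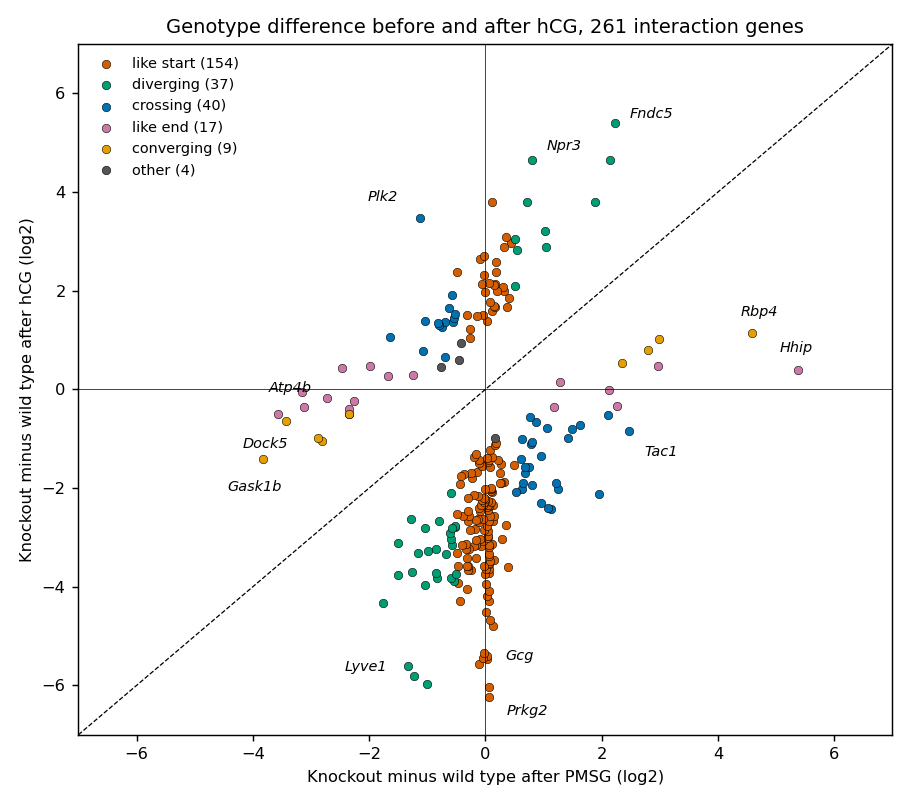
Knockout minus wild type after PMSG (x axis, log2) against the same difference after hCG (y axis, log2) for the 261 genes with a called interaction, coloured by starting level class; on the dashed line the difference would be equal at both times. The 154 genes with a like start lie within 0.5 of x = 0, and Hhip and Rbp4 lie far to the right, where the knockout was already high after PMSG.

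Among the 17 genes with a like end the response was lost in 11, blunted in 1, gained in 2, enhanced in 2 and reversed in 1. The largest interaction among them was that of Hhip, which encodes a membrane protein that binds hedgehog ligands. In wild type it stood at -5.01, -3.48 and -5.31 after PMSG and at -0.20, -0.02 and 0.91 after hCG. In the knockout it was 0.02, 0.85 and 1.43 after PMSG and -0.45, 1.44 and 0.90 after hCG, groups that overlap with each other and with wild type after hCG. Hhip was thus 5.37 higher in the knockout at the start (adjusted p = 0.000464) and 0.40 higher at the end (adjusted p = 0.71), with an interaction of -4.97 ± 0.832 (adjusted p = 0.0108). Its 3 other probe sets gave -4.24 to -3.02. The start was higher in the knockout in 6 of the 17 genes and lower in 11.

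Atp4b, Dock5, Fbn2 and Gem started lower in the knockout. Atp4b, the beta subunit of the gastric proton pump, fell from 2.89, 3.47 and 2.98 to -0.01, 0.93 and -0.19 in wild type, while all 6 knockout arrays lay between -0.19 and 0.02. Its interaction was 2.77 ± 0.387 (adjusted p = 0.00357). Dock5, an activator of the GTPase Rac, showed the same pattern with 1.92, 3.66 and 3.58 before hCG in wild type and no knockout array above 0.03 (interaction 3.08, adjusted p = 0.0407). Its call held in 4 of the 12 fits that left out 1 array. Fbn2, a fibrillin of the extracellular matrix, fell from 2.58, 1.56 and 1.76 to 0.11, 0.28 and -0.12 in wild type and went from -2.48, -0.38 and -0.70 to -0.47, 0.68 and -0.11 in the knockout. Its genotypes overlapped after hCG and not before it (interaction 3.09, adjusted p = 0.0499), and the call held in 3 of those 12 fits. Gem, a small GTPase that restrains calcium channels, started at -1.82, -2.78 and -2.53 in the knockout, below the 0.77, -0.44 and -0.07 of wild type, and rose to 1.46, 0.11 and 0.07. This brought it to the level at which wild type had stayed (interaction 2.89, adjusted p = 0.0334, called in 7 of the 12 fits without 1 array).

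Converging genes started apart and ended closer. Rbp4, which encodes the plasma carrier of retinol, was 4.59 higher in the knockout after PMSG and 1.14 higher after hCG. Wild type rose from -3.90, -3.77 and -4.55 to -0.31, -0.19 and 0.14, and the knockout went from -0.14, 0.79 and 0.89 to 0.21, 1.67 and 1.20 (interaction -3.44 ± 0.549, adjusted p = 0.0082). Nr3c1, the glucocorticoid receptor, started 2.80 higher in the knockout and rose by 2.21 in wild type, with a change of 0.22 in the knockout (interaction -1.99, adjusted p = 0.0109). Gask1b, a kinase-like protein of the Golgi, ran the other way. It began 3.83 log2 units below wild type in the knockout, at -3.24, -3.96 and -3.30, and rose by 2.90, against a change of 0.48 in wild type, to -0.97, -0.07 and -0.75 (interaction 2.42, adjusted p = 0.00858). Cxxc4, an inhibitor of WNT signalling, fell by 2.85 in wild type from 4.03, 3.04 and 3.14, while the knockout arrays lay between -0.18 and 0.08 throughout. Its interaction of 2.77 (adjusted p = 0.0365) was called in 1 of the 12 fits without 1 array.

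Among the 37 diverging genes 27 were lower in the knockout at both times and 10 higher, by group means. The difference at the start was called in 11 of the 37. It was not called in Zbtb16, Akr1c18 or Lyve1 (limma, adjusted p = 0.184, 0.185 and 0.389). Zbtb16 encodes the transcription factor PLZF. It stood at -0.02, 1.71 and 0.86 in wild type after PMSG and rose to 5.31, 5.32 and 6.46, while the knockout arrays lay between -0.31 and 0.02 at both times (interaction -4.97 ± 0.57, adjusted p = 0.00109). The 2 other probe sets of Zbtb16 gave -3.09 and -0.59. Akr1c18 encodes 20-alpha-hydroxysteroid dehydrogenase, which breaks down progesterone. In wild type it rose from -0.17, 0.38 and 1.62 to 4.32, 4.59 and 5.88, and in the knockout it went from -0.30, -1.07 and -0.79 to -1.02, -1.18 and 0.17 (interaction -4.28 ± 0.751, adjusted p = 0.0137). The knockout arrays of Akr1c18 did not rise above any wild-type array after hCG. Fndc5, the precursor of irisin, diverged upward: wild type fell from -1.11, -0.94 and -1.27 to -4.81, -2.84 and -5.04, and all knockout arrays lay between 0.94 and 1.31 (interaction 3.17, adjusted p = 0.0279, called in 2 of the 12 fits without 1 array).

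Lyve1, a hyaluronan receptor that also marks lymphatic endothelium, had 0.25, -1.08 and 2.02 in wild type before hCG and 4.97, 4.78 and 5.89 after it. The knockout went from -0.38, -1.45 and -0.66 to -1.78, -0.01 and 0.01. The interaction of -4.58 ± 1.01 (adjusted p = 0.0428) was called in 2 of the 12 fits that left out 1 array, those without wild type after PMSG replicate 3 or wild type after hCG replicate 2. The other probe set of Lyve1 also gave -4.58 and was called in a fit over all single-gene probe sets. Of 11 measured markers of endothelium, limma called the interaction in 0, with 0 at an unadjusted p under 0.05 and a median interaction of -0.16. The medians of those markers on single arrays lay between -0.62 and 0.07 in wild type and between -0.06 and 0.04 in the knockout after PMSG. After hCG they were between -0.14 and 0.68 and between -0.29 and 0.51, ranges that overlap.

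In the 40 crossing genes the knockout moved from one side of wild type to the other: from higher to lower in 26 and from lower to higher in 14, with both differences called in 8. Fzd1, a frizzled receptor of WNT ligands, started at -0.43, -0.50 and -0.30 in the knockout, above the -1.27, -1.87 and -1.45 of wild type. After hCG it was 0.30, 0.86 and 1.0 in the knockout, below the 3.14, 2.76 and 3.56 of wild type, and the groups did not overlap at either time (interaction -3.55 ± 0.368, adjusted p = 0.000535, other probe set -3.16). Tac1, the precursor of substance P, began 2.48 higher in the knockout, and its mean ended 0.85 lower. That end difference was not called (limma, adjusted p = 0.145), and the genotypes overlapped after hCG. Tac1 rose by 4.68 in wild type and had a change of 1.35, not called, in the knockout (interaction -3.33, adjusted p = 0.00954). Its other probe set gave -0.19. Prkca, a protein kinase C, rose by 3.56 in wild type and had a change of 0.08 in the knockout (interaction -3.48, adjusted p = 0.0123).

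Gained and enhanced responses were fewer, 18 genes in all, and 9 of these had a like start. Ptgs2, the inducible enzyme of prostaglandin synthesis, was among them. It went from -3.76, -3.81 and -3.97 to 4.89, 3.98 and 3.76 in wild type and from -3.93, -4.11 and -3.78 to 7.14, 6.58 and 6.81 in the knockout. The groups overlapped before hCG, and after it all 3 knockout arrays were above all 3 of wild type. The rises were 8.06 and 10.78, an interaction of 2.73 ± 0.392 (adjusted p = 0.004), and the other probe set gave 2.91. Npr3 encodes the receptor that clears natriuretic peptides. It rose from -1.36, -1.37 and -1.15 to 1.19, 0.29 and 0.73 in wild type, and from -0.29, -0.73 and -0.44 to 5.84, 5.16 and 5.15 in the knockout. The groups were apart at both times (interaction 3.84 ± 0.377, adjusted p = 0.000376), and its 2 other probe sets gave 3.75 and 4.72. Megf10, a receptor for the engulfment of dying cells, rose by 0.77 in wild type and 3.47 in the knockout (interaction 2.70, adjusted p = 0.00198).

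Among the gained genes, Plk2, Ch25h and Has1 rose in the knockout and changed by less than 0.5 in wild type. Plk2, a polo-like kinase, went from -2.15, -1.25 and -0.61 to 4.95, 2.73 and 2.32 in the knockout. In wild type it stood at 0.04, -0.04 and -0.62 before and 0.23, 0.07 and -0.72 after hCG (interaction 4.61 ± 0.861, adjusted p = 0.0186). Its other probe set gave -0.02, and the call was lost without replicate 1 or 2 of wild type after PMSG (4.48 and 4.52) or replicate 3 of wild type after hCG (4.32). Ch25h makes 25-hydroxycholesterol, a sterol that holds back cholesterol synthesis. It went from -0.03, -0.43 and -0.30 to 2.45, 4.41 and 4.89 in the knockout, and from -0.38, -0.37 and -0.35 to 0.03, 0.12 and 0.23 in wild type (interaction 3.67 ± 0.666, adjusted p = 0.0156). Has1, a synthase of hyaluronan, lay between -0.19 and 0.06 on all 6 wild-type arrays and went from -0.06, 0.71 and 0.11 to 2.84, 3.37 and 2.80 in the knockout (interaction 2.74 ± 0.329, adjusted p = 0.00136). Ch25h and Has1 were each measured by 1 probe set.

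The promoters of these 3 genes are shown because each holds the full cyclic AMP response element, TGACGTCA, shortly before the start of the gene, as does that of another gained gene, 4930447M23Rik (interaction 1.97, adjusted p = 0.0143), named after its values were seen. The sequences are RefSeq's on GRCm38.p6, read 5′ to 3′ on the strand of the gene for the 150 bases before its start, and capitals mark the element.
Plk2 (chr13:110394894-110395043, plus strand): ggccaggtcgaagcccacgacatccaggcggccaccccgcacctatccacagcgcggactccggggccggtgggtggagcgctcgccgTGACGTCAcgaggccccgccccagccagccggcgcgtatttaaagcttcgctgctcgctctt
Ch25h (chr19:34475149-34475298, minus strand): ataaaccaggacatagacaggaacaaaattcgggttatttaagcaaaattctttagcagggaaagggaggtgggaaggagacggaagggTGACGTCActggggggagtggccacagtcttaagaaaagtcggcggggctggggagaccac
Has1 (chr17:17855189-17855338, minus strand): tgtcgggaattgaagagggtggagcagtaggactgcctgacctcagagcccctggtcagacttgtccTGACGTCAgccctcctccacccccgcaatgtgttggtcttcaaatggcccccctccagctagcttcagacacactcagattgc
4930447M23Rik (chr2:19344167-19344316, plus strand): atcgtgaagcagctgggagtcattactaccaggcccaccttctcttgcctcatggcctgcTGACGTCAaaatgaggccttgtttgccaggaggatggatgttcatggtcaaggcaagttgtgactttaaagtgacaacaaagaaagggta

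The element began 62, 61, 83 and 90 bases before the start in these genes. In windows from 250 bases before to 50 after the start, it was found in 4 of the 8 gained genes with a window (50%), in 4 of 113 lost genes (3.54%), in 1 of 52 blunted genes (1.92%) and in 340 of the 10084 tested genes with a window (3.37%). Among the 186 interaction genes that were not gained and had a window it was in 6 (3.23%). It was 1 of 7 motifs searched on both strands after the values were known, so these shares are a description with no test. The others were TGACG, which overlaps the full element, the AP-1 motif TGANTCA, the NR5A motif CAAGGTCA, the RUNX motif TGTGGT, the GC box GGGCGG and the SMAD motif GTCTAGAC. The AP-1 motif was in 2 of the 8 gained windows (25%), 13 of 113 lost windows (11.5%) and 6.61% of all tested windows. The GC box was in 50%, 72.6% and 67.5% of them. A match in such a window is a match of letters and shows no binding.

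Responses in opposite directions were called in both genotypes for a single gene, Ttc28, which encodes a tetratricopeptide repeat protein. It fell from 0.50, 0.15 and 0.18 to -0.81, -0.34 and -0.67 in wild type and rose from -0.37, -0.15 and -0.30 to 1.06, 0.53 and 0.70 in the knockout. Both changes were near 1 in size, -0.88 and 1.04, with no overlap within either genotype (interaction 1.92 ± 0.29, adjusted p = 0.00563). Ttc28 was named after its values were seen. In 10 of the 15 reversed genes the wild-type response alone was called, and in 4 that of the knockout alone. Epas1, the oxygen-sensitive transcription factor HIF-2 alpha, rose from -0.21, -0.06 and 0.06 to 2.80, 1.78 and 2.96 in wild type, and went from 1.48, -0.24 and -0.38 to -0.27, -0.49 and 0.07 in the knockout. Its knockout response of -0.51 was not called and rested on replicate 1 before hCG (interaction -3.10, adjusted p = 0.0324, called in 4 of the 12 fits without 1 array). Mfap3l moved by -0.86 in wild type and by 2.01 in the knockout (interaction 2.87, adjusted p = 0.0114). Tpd52l1 rose by 2.43 in wild type and stood at -0.87, -0.92 and -0.09 before and -1.46, -1.26 and -0.84 after hCG in the knockout (interaction -2.99, adjusted p = 0.0048). Prickle2, a planar cell polarity protein, fell by 2.05 on the log2 scale in wild type and had 0.68 in the knockout (interaction 2.73, adjusted p = 0.0323, called in 4 of the 12 fits without 1 array).

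Usp18 and Oasl2, both reversed, were named after their values were seen. Their knockout responses of -0.52 and -1.16 were not called (limma, adjusted p = 0.501 and 0.0902). Usp18, which removes the ubiquitin-like modifier ISG15, stood at 0.07, -0.02 and -0.06 before and 2.01, 1.87 and 2.94 after hCG in wild type. In the knockout it went from 0.37, -0.04 and 0.02 to -0.64, -0.06 and -0.51 (interaction -2.80 ± 0.395, adjusted p = 0.00368). Oasl2, an oligoadenylate synthetase-like protein, rose by 1.13 in wild type and stood at -1.62, -1.41 and -1.32 in the knockout after hCG, below its 0.01, -0.45 and -0.42 before (interaction -2.29, adjusted p = 0.0212, called in 8 of the 12 fits without 1 array).

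Well known ovulatory genes were examined within a panel of follicle genes. Lhcgr, Areg and Cyp19a1 were planned for it and were not among the 12500 genes tested. Of its 17 measured genes, 2 were called, Ptgs2 and Fst. For the others the interval of the difference says how far the responses may still differ. Pgr, the progesterone receptor, which is required for ovulation, rose by 7.92 in wild type and by 7.37 in the knockout, from values between -3.81 and -3.40 in both. After hCG it stood at 4.43, 4.12 and 4.46 in wild type and 3.40, 3.62 and 3.80 in the knockout, so the groups did not overlap, yet the interaction of -0.55 had an adjusted p of 0.362 and a 95% interval from -1.12 to 0.02. Ptx3 and Tnfaip6, which crosslink the hyaluronan matrix, rose by 7.53 and 7.41 in wild type and by 7.5 and 7.79 in the knockout. Their intervals ran from -1.12 to 1.06 and from -0.51 to 1.27. Among the EGF-like growth factors Btc rose by 8.82 and 8.21 (interval -1.75 to 0.53) and Ereg by 8.12 and 9.54 (interval 0.39 to 2.46, adjusted p = 0.174). The protease Adamts1 rose by 2.34 and 1.75 (interval -1.39 to 0.22). Its knockout arrays lay below all wild-type arrays at both times, with a difference of -1.42 after PMSG (limma, adjusted p = 0.00847, and 0.000364 after hCG). Those of Tnfaip6 lay above all wild-type arrays at both times, by 1.09 and then 1.47 (limma, adjusted p = 0.0472 and 0.00398). A response with no called difference thus does not mean equal values in the genotypes. Has2, the hyaluronan synthase of the cumulus, rose by 4.52 in wild type and 6.27 in the knockout, with an interval from 0.15 to 3.35 that reaches large differences (adjusted p = 0.286).

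Star, which carries cholesterol into mitochondria, is a case of a different start with no called difference in response. Its values were -3.24, -2.95 and -1.21 in wild type and -6.98, -7.29 and -6.93 in the knockout before hCG, and 4.59, 4.28 and 4.84 against 1.21, 1.84 and 1.81 after it. The knockout was below wild type at both times with no overlap, by 4.60 and 2.95 on the log2 scale, and the rises of 7.04 and 8.68 gave an interaction of 1.64 with an interval from 0.29 to 3.0 (adjusted p = 0.234). Cyp11a1, which cleaves the side chain of cholesterol, likewise began 3.23 log2 units lower in the knockout. It moved by 0.49 in wild type and rose by 1.43 in the knockout (interaction 0.94, adjusted p = 0.269). Fdx1 supplies electrons to that enzyme and did pass. It went from -1.37, -0.93 and -0.15 to 0.74, 0.57 and 0.88 in wild type and from -3.07, -3.31 and -3.09 to 0.24, 0.29 and 0.15 in the knockout, an enhanced rise from a lower start (interaction 1.84 ± 0.378, adjusted p = 0.0307, called in 3 of the 12 fits without 1 array).

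**Figure D4:**
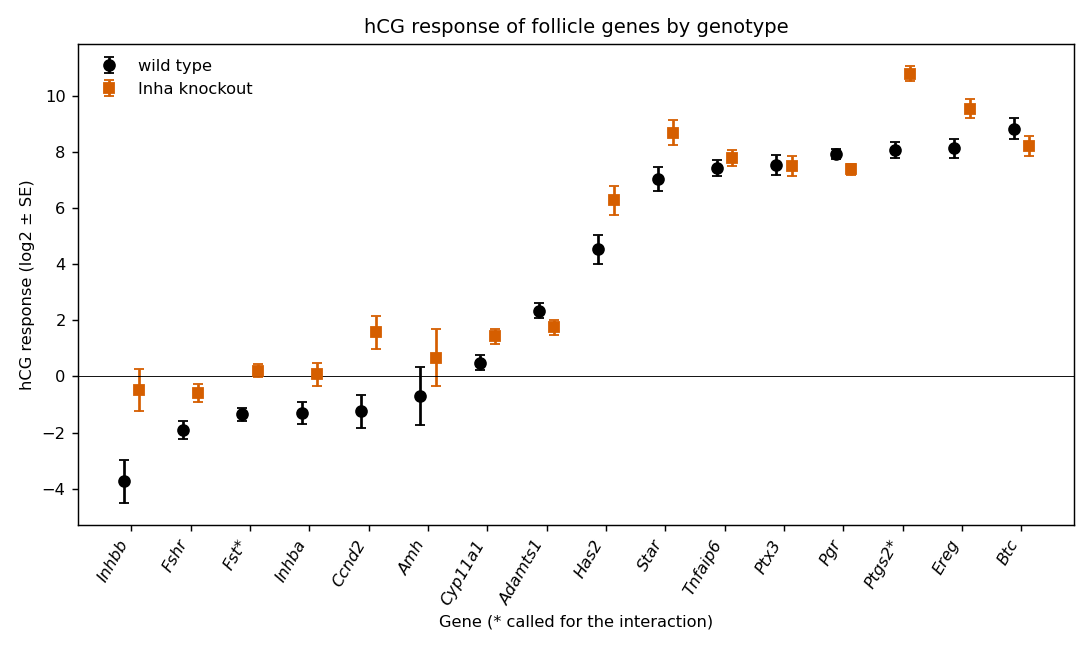
hCG response (y axis, log2, hCG minus PMSG, with the SE of the fit) of 16 follicle genes in wild type (black circles) and Inha knockout (orange squares), ordered by the wild-type response; an asterisk marks a called interaction. Pgr, Ptx3, Tnfaip6 and Btc rose by over 7 in both genotypes, Ptgs2 rose by 8.06 and 10.78, and Fst fell in wild type alone.

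Among ligands, receptors and antagonists of activin, 1 of 14 measured genes passed, beside 2.09% of all genes. Fst, the gene of follistatin, which binds and neutralises activin, fell from -0.20, 0.27 and 0.07 to -1.11, -1.14 and -1.66 in wild type. In the knockout it stood at -0.05, 0.34 and -0.29 before and 0.47, 0.05 and 0.11 after hCG, so that the fall was lost (interaction 1.56 ± 0.337, adjusted p = 0.0405). The call held in 4 of the 12 fits that left out 1 array, with values from 1.38 to 1.73, and the other probe set gave 0.79. Inhbb and Inhba, the genes of the activin beta subunits, fell by 3.74 and 1.31 on the log2 scale in wild type and had -0.49 and 0.07 in the knockout, with interactions of 3.25 (adjusted p = 0.174) and 1.38 (adjusted p = 0.281) that did not pass. Wild-type replicate 3 after hCG stood far below the other two for Inhbb, at -6.04 against -2.16 and -2.54. The median interaction of the 14 genes was 0.48, beside 0.08 over all genes. Of 15 genes of BMP and AMH signalling, 1 passed, again beside 2.09% of all genes. It was Bmpr2, a type II receptor of BMPs, which fell by 1.65 in wild type and had 0.40 in the knockout (interaction 2.06, adjusted p = 0.0434, called in 2 of the 12 fits without 1 array). In that list 12 of 15 values were positive, with a median of 1.29.

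LH-induced ovulatory regulators were lower in interaction in 8 of 23 measured genes and higher in 0, against 1.50% and 0.584% of all genes. The list's median was -0.83. Of its genes 16 rose in wild type and 11 in the knockout, beside 9.87% and 2.45% of all genes. The interaction subtracts the wild-type rise, so a list of genes known to rise with LH can lean below 0 by its choice. The members were also chosen with earlier results of these data known, so the shares are descriptions and no test. Beside Prkg2, Snap25, Sphk1, Zbtb16 and Sult1e1, the called genes were Cited4, Rgs2 and Edn2. Cited4, a co-activator of transcription, reached 4.71, 3.81 and 4.90 in wild type and 0.92, 0.20 and 0.82 in the knockout after hCG (interaction -3.24 ± 0.403, adjusted p = 0.00159), while its other probe set gave -0.01. Rgs2, which restrains G protein signalling, rose by 2.87 in wild type and had 0.93 in the knockout (interaction -1.94, adjusted p = 0.0137), with -0.41 to -0.19 on 3 other probe sets. Edn2, or endothelin 2, a constrictor of the follicle wall at ovulation, stood at 1.72, 1.75 and 1.83 in wild type after hCG and between -0.11 and 0.05 in the knockout (interaction -1.57, adjusted p = 0.02, called in 7 of the 12 fits without 1 array).

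FSH-induced preovulatory genes leaned the other way, with 2 of 12 called higher, 0 called lower and a median of 1.75. The share called higher over all genes was 0.584%. The members of this list, too, were chosen with earlier results known, and genes that fall in wild type after hCG can lean above 0. Of the 12 genes 8 fell after hCG in wild type and 0 in the knockout, beside 12.2% and 0.224% of all genes. A positive interaction at an unadjusted p under 0.05 was found in 10 of them, beside 8.91% of all genes. Beside Fdx1 the called gene was Prkar2b, a regulatory subunit of protein kinase A, which fell from 0.38, 0.69 and 0.52 to -0.90, -0.87 and -1.94 in wild type. In the knockout it went from 0.17, -0.09 and -0.75 to 0.12, 0.01 and -0.01 (interaction 2.03, adjusted p = 0.0389, called in 3 of the 12 fits without 1 array). The FSH receptor gene Fshr fell by 1.91 on the log2 scale in wild type and had -0.60 in the knockout (interaction 1.31, adjusted p = 0.184). Ccnd2, the cyclin that FSH induces in granulosa cells, had -1.24 and 1.58 (interaction 2.82, adjusted p = 0.123).

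The other pathway lists held from 0 to 3 called genes each, beside 2.09% of all genes. Some genes are in more than 1 list, and over all lists 20 different genes were called of 264 measured. In cumulus expansion and follicle matrix, Adam8, a membrane-bound protease, lost its rise (a rise of 3.71 in wild type and a change of 0.41 in the knockout, adjusted p = 0.00392), Ptgs2 was enhanced, and 12 of 14 did not pass. The prostaglandin receptor gene Ptger4 was just outside the threshold, with rises of 1.73 and 4.63 (adjusted p = 0.0547). In luteal and progesterone synthesis, 1 of 11 was higher (Fdx1) and 1 lower (Akr1c18). Of 14 genes of cAMP and cGMP signalling, Prkg2 and Rgs2 were lower and Prkar2b was higher. Fdx1, Prkg2, Rgs2 and Prkar2b were already counted in the LH-induced or FSH-induced list. Fzd1 was the called gene among 13 of WNT signalling and Epas1 among 14 of hypoxia and angiogenesis. The interaction was called by limma in 0 of 19 genes of cholesterol biosynthesis, in 0 of 30 cell cycle and DNA replication genes and in 0 of 22 immediate early genes. At an unadjusted p under 0.05 these lists had 3, 6 and 4 genes, beside 14.9% of all genes. Their medians were -0.21, 0.47 and 0.65, beside 0.08 over all genes.

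**Figure D5:**
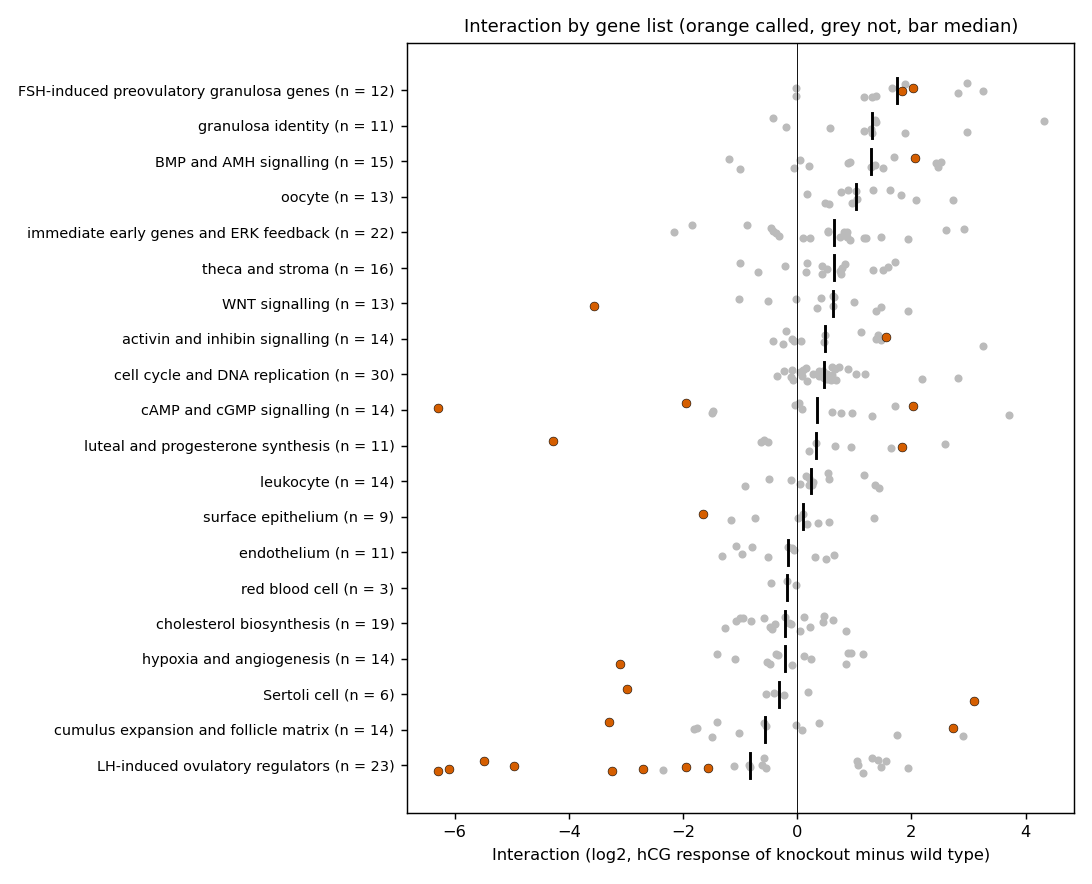
Interaction of each measured gene (x axis, log2, hCG response of knockout minus wild type) in 20 gene lists (rows, number measured in brackets), with called genes in orange, others in grey and the list median as a black bar. The list of LH-induced ovulatory regulators has 8 called genes, all left of 0, and the FSH-induced list has its median at 1.75. The lists were chosen with earlier results of these data known.

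Markers of cell types that follicle puncture can carry over were measured beside these results. Over all genes 2.09% were called and 14.9% had an unadjusted p under 0.05. In bulk RNA fewer cells of a type and less RNA per cell cannot be told apart, and as values are centred no marker can be called absent. Of 13 oocyte genes 0 were called, 2 had an unadjusted p under 0.05, and 13 of 13 had a positive interaction, with a median of 1.03. Their medians on single arrays lay between -1.78 and -0.53 in wild type and between 0.64 and 2.41 in the knockout after PMSG, and between -1.55 and -0.74 and between 0.54 and 2.90 after hCG. The genotypes were thus apart at both times, and the treatments overlapped within each genotype. Of 16 theca and stroma genes 0 were called and 1 had an unadjusted p under 0.05, with a median of 0.64. Their array medians were between -0.71 and -0.34 in wild type and between 0.43 and 1.47 in the knockout after PMSG, and between -1.13 and -0.45 and between 0.05 and 2.02 after hCG. Leukocyte markers (0 of 14, median 0.24) and red blood cell markers (0 of 3, median -0.18) had 0 genes at an unadjusted p under 0.05. Of 9 markers of the surface epithelium 1 was called, Cdh1, or E-cadherin, which rose by 1.86 in wild type and had 0.21 in the knockout (interaction -1.65, adjusted p = 0.0405, called in 3 of the 12 fits without 1 array). The medians of these 9 on single arrays lay between -0.03 and 0.73 and between -1.26 and -0.42 after PMSG, and between 0.90 and 1.04 and between -0.51 and -0.10 after hCG, in wild type and knockout. The part of these cells in the results was not tested.

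Granulosa identity was checked with 11 measured genes, of which 0 were called and 7 had a positive interaction at an unadjusted p under 0.05 (median 1.31), beside 8.91% of all genes. Fshr, Inhba, Esr2, Gata4 and Nr5a2 are also in the FSH-induced list, so the counts of these lists are not separate results. The 11 genes, Inha among them, differed at the start, with a median difference of -1.47 and 3 of 11 called lower in the knockout. Their medians on single arrays lay between 0.75 and 0.83 in wild type and between -0.51 and 0.14 in the knockout after PMSG, which do not overlap. After hCG they lay between -1.66 and -0.19 and between -0.58 and -0.18, which do. Foxl2, a transcription factor that maintains granulosa cells, stood at 0.43, 1.89 and 1.70 before and -1.24, -2.02 and -4.62 after hCG in wild type. The knockout arrays were 0.53, 0.92 and -3.04 before and -0.52, -0.08 and 0.08 after (interaction 4.32 ± 1.44, adjusted p = 0.174). Of 6 Sertoli cell genes 2 were called, in opposite directions, where 0.584% of all genes were called higher and 1.50% lower. Rhox5, a homeobox gene, reached 3.25, 3.48 and 4.65 in wild type after hCG against -0.28, 1.17 and 0.96 in the knockout (interaction -2.98, adjusted p = 0.023, called in 7 of the 12 fits without 1 array). Dhh, a hedgehog ligand, fell from -0.17, 0.30 and -0.02 to -3.63, -2.55 and -4.73 in wild type, and in the knockout it went from 1.23, 1.07 and -0.06 to 0.02, 0.07 and 0.41 (interaction 3.09, adjusted p = 0.0426, called in 2 of the 12 fits without 1 array).

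The serial numbers of the arrays fell into 7 early and 5 late ones, and both groups after hCG hold 1 early and 2 late arrays. On the 7 early arrays alone each hCG group is 1 array, so that every response there rests on a lone sample assumed to vary like the PMSG arrays. In that fit 72 genes were called, 45 of them among the 261. The 55 called genes named by the rule for naming had the same sign, 15 of them with a call, on arrays that are part of the full set. The late arrays hold none of wild type after PMSG, so the interaction cannot be computed within them. Some arrays carried the same number in their name: wild type and knockout replicate 1 before hCG, wild type and knockout replicate 2 before hCG, and wild-type replicates 2 and 3 after it. The consensus correlation within a number was 0.297. With that number as a random block 48 genes were higher and 172 lower, and 217 of the 261 were shared. With early or late as a covariate 229 genes were called, 204 of them among the 261. Of the 261 genes, 123 were called in all 12 fits that left out 1 array, and all 261 kept their sign in those fits. As the 261 were chosen on these same arrays, a kept sign says little. Of the 261, 107 had 1 probe set. The other 154 had 288 further probe sets, of which 263 had the same sign and 135 reached at least 1 in that direction.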

How the data were processed

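Granulosa cell RNA from 12 samples was hybridised to 1 single-colour Affymetrix mouse array each. The authors deposited log2 values made with GCRMA, per the submitters' processing notes (no version stated). In the table each probe set is centred on its median over the arrays, as tested on the values, so levels and background cannot be read from it, and the number of arrays limits the precision. Groups came from the titles, and 0 other sample columns were present.

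Of 45101 probe sets, 34945 named 1 gene and were no controls. Each of the 18193 genes was represented by its most variable probe set (SD over all 12 arrays, groups ignored) and kept if that SD lay in the upper 60% (at least 0.151), which left 12500. A group-means model was fitted in limma 3.58.1 (R 4.3.3) with moderated variances and Benjamini-Hochberg adjustment over all 12500 genes, and tested on simulated data. Named genes were Inha, the 15 largest interactions in each direction without clone or predicted names, the 4 largest in each response and starting level class, up to 4 genes with the smallest adjusted p in each of 20 lists, and a panel of follicle genes. The members, lists and classes were chosen with earlier results of these data known. List genes beyond these, such as Cited4, Edn2 and Sult1e1, were named because they were called.

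The deviations of same-numbered samples of different groups correlated with r from -0.134 to 0.299 over 18 pairs, with 6 over 0.1 and 6 below 0, so the numbers were not taken as pairing. The pairs with a shared number in the array's name, replicates 1 and 2 of both genotypes after PMSG, had r of 0.182 and 0.299. Alternatives changed the block, array serial number, probe set choice, filter, normalization, variance model, array weights, test and class bound, and left out each array in turn. The class bounds of 0.25 and 1 were added after seeing the data. Promoter windows were RefSeq's on GRCm38.p6.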

Additional observations from a re-analysis of the deposited data

Results flagged for a closer look

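A difference between the genotypes in the response to hCG singled out each of the following, by limma's test of the interaction over 12500 genes. By class the genes numbered 155 lost, 67 blunted, 10 gained, 8 enhanced and 15 reversed. The largest negative interactions on the log2 scale were -6.30 for Prkg2, -6.10 for Snap25, -5.48 for Sphk1, -5.46 for Tmem71, -5.43 for Gcg, -5.41 for Asgr1, -5.32 for Pitpnc1, -4.97 for Zbtb16 and for Hhip, -4.93 for Sema4f, -4.75 for Npy, -4.58 for Lyve1, -4.53 for Kl, -4.35 for Thsd7a and -4.28 for Akr1c18. Of these 15, Lyve1 was called in 2 of the 12 fits that left out 1 array, with values from -5.40 to -3.85, and the other 14 in all 12. The largest positive interactions were 4.61 for Plk2, 3.84 for Npr3, 3.67 for Ch25h, 3.17 for Fndc5, 3.09 for Fbn2 and for Dhh, 3.08 for Dock5, 2.89 for Gem, 2.87 for Mfap3l, 2.77 for Cxxc4 and for Atp4b, 2.74 for Has1, 2.73 for Prickle2 and for Ptgs2, and 2.70 for Megf10. Of these 15, 7 were called in all 12 fits that left out 1 array. The others were Plk2 with 9 of 12, Gem with 7, Dock5 and Prickle2 with 4 each, Fbn2 with 3, Fndc5 and Dhh with 2 each and Cxxc4 with 1.

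Outside the single-gene probe sets, 46 of 10092 probe sets that name no gene or several genes were called, 4 higher and 42 lower, with values from -5.76 to 3.30. That is 0.456% of them, beside 272 called probe sets, or 0.778%, among those that name 1 gene, in a fit over all probe sets.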

How the results depend on the processing

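All 55 called genes named by the rule kept their sign under the 24 alternatives that gave them a value. These genes were chosen on the same arrays, so a kept sign says little. Of their 1319 values 967 kept the call and 352 lost it. In 14 genes the call held throughout: Asgr1, Fzd1, Gcg, Kl, Megf10, Npr3, Npy, Pitpnc1, Prkg2, Sema4f, Snap25, Sphk1, Thsd7a and Tmem71. Against 73 genes called higher, 188 lower, 222 lost or blunted, 18 gained or enhanced, 15 reversed and 154 with a like start, the 7 early arrays alone gave 16 higher, 56 lower, 56 lost or blunted, 4 reversed and 59 with a like start. With 1 array in each hCG group there, its spread is borrowed from the PMSG arrays. They called 1229 genes for the wild-type response, 119 for the knockout response, and 173 and 650 for the genotype difference after PMSG and after hCG. A test against a change of 0.5 (treat) gave 15, 103, 103, 7, 7 and 75 in the same order, and 1021, 158, 240 and 1052. Array weights gave 195 higher, 384 lost or blunted, 28 gained or enhanced, 29 reversed, 265 with a like start and 4543 for the wild-type response. The array name number as a random block gave 48 higher and the mean of a gene's probe sets 123. All single-gene probe sets gave 4245 for the wild-type response and 4238 for the difference after hCG. Class bounds of 0.25 and 1 gave 32 and 2 reversed. The share of lower calls was 72%, and 58.9% with array weights and 87.3% with treat. Genes in the upper 30% by SD had a median interaction of 0.26 in place of 0.08. The cause of these shifts was not tested.

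Leaving out 1 array gave 25 to 286 genes higher, 111 to 263 lower, 114 to 490 lost or blunted, 12 to 30 gained or enhanced, 9 to 29 reversed and 83 to 315 with a like start. It gave 1538 to 3184 for the wild-type response, 214 to 374 for the knockout response, 432 to 901 after PMSG and 1630 to 3011 after hCG. Without replicate 2 of wild type after hCG 549 genes were called, 47.9% of them lower, and without replicate 2 of wild type after PMSG 136. With the replicate number as a block 74 genes were higher and 173 lower, and 206 of the 261 were shared.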
